A study of Mus musculus with 3 samples.

Results

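The genes of the mitochondrial ribosome were followed here in mouse prostate cancer cells. They were taken as every noncontrol probe whose gene name on the array is Mrpl or Mrps followed by a number, with or without a letter from a to c. This gave 106 probes of 76 genes among 39429 distinct probes, 47 genes named for the large subunit (Mrpl) and 29 named for the small subunit (Mrps). RM1, an established line of mouse prostate cancer cells, was used in 2 versions. The labels describe RM1-MXRA7 as carrying transfected MXRA7, a matrix remodelling associated gene, whereas RM1-VE carries only the vehicle vector. Both lines were kept in DMEM with serum and the selection drug G418 and lysed in exponential growth on day 2. Total RNA of both was hybridised together on 3 Agilent 2-colour arrays, RM1-MXRA7 in Cy3 and RM1-VE in Cy5 each time. Each array therefore gave 1 log2 ratio per gene of RM1-MXRA7 over RM1-VE, and n = 3 throughout.

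Mitochondria keep a small genome of their own, and its messenger RNAs, which encode core subunits of the respiratory chain and of ATP synthase, are translated on a dedicated ribosome inside the organelle. The RNA of that ribosome is made in the mitochondrion, whereas its proteins are encoded by nuclear genes, made in the cytosol and imported. Many of them descend from proteins of bacterial ribosomes and others have no bacterial counterpart. The small subunit binds and decodes the messenger RNA, and the large subunit joins the amino acids and holds the exit tunnel for the new chain.

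The labels do not say whether the 3 arrays came from separate transfections or cultures, so p-values measure only the spread between these arrays, which may be technical. Dyes were not swapped, so the lines and the dyes cannot be told apart for any single probe. Between 21767 and 24172 of all probes were well above background per array and channel. The transfected gene Mxra7 had log2 ratios of 0.032, -0.039 and -0.050 on arrays 1, 2 and 3 (mean -0.019 ± 0.044, SD, n = 3; limma adjusted p = 0.819), so its own RNA was not shown to be higher in the cells labelled RM1-MXRA7. With the position effect described below left in, the same probe read 0.31 (limma adjusted p = 0.00531). Whether it lies within the transfected sequence is not given in the sources used here, and every direction below rests on the labels of the lines. Of the marker lists, 4 of 7 epithelial genes, 7 of 8 mesenchymal genes and 1 of 6 prostate genes (Fkbp5) were kept as expressed, so the prostate origin itself was not visible in the other 5 prostate markers. Leukocyte markers were kept for 4 of 6 genes and endothelial markers for 3 of 4. In those lists Krt19 (-0.86), Col1a1 (-1.75), Itgam (-0.20) and Cdh5 (-0.72) fell and Col3a1 (1.82), Fn1 (0.87) and Col1a2 (0.21) rose on the log2 scale by limma, and their part in the results below was not tested.

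All 76 mitochondrial ribosomal protein genes were expressed in both lines, with at least 1 probe well above background in Cy3 and in Cy5 on every array. Of the 106 probes, 104 met this mark, and the exceptions were the dimmer probes of Mrpl9 and Mrpl21. The signals were strong, with a median log2 intensity of 13.3 over the 76 genes against 10.3 over all 16819 genes tested, and no member spot was saturated. The members as a group lay close to 0. Their log2 ratios had a median of -0.010, quartiles of -0.095 and 0.054 and a range of -0.29 to 0.20, while all genes tested had a median of 0.0041 and quartiles of -0.12 and 0.12. The SD over genes was 0.114 for the members and 0.279 for all genes. Of the members 43 lay below 0 and 33 above it, and the median of the members was -0.012, 0.005 and -0.022 on arrays 1, 2 and 3. Over the 76 members the ratio correlated with mean log2 intensity (r = 0.33) and with the share of G and C in the probe (r = 0.30). Over all genes tested these were -0.009 and -0.026. They are descriptions over genes of the same arrays, and their part in the calls below was not tested.

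By limma with Benjamini-Hochberg adjustment over all genes at 0.05, 2 of the 76 members rose in RM1-MXRA7 cells, against 14.9% of all genes tested, and 8 fell, against 15.5% of all genes. Together 10 members (13.2%) passed, against a background of 30.4%. The share of members called was thus below the share of all genes in both directions, and this is a description with no test of the list. Without array 1 limma called 1 member higher and 7 lower, against 2785 and 2780 of all genes. Without array 3 it called 1 and 6, against 2113 and 2271 of all genes. Without array 2 it called 0 and 0 (11 at an unadjusted p of at most 0.05), against 740 and 934 of all genes. For the other 66 members a difference was not detected, which does not show equality. For the probe that stands for the gene and with the surface removed, the 95% interval of each of the 76 genes lay within 0.5 of 0 on the log2 scale, which held for 89.5% of all genes. The bound farthest from 0 was 0.413 in size and the median distance from ratio to bound was 0.130. The mean ratio itself lay within 0.2 of 0 for 69 members (90.8%) and for 71.7% of all genes. Among 78 nuclear genes for respiratory chain and ATP synthase subunits, 91% lay within 0.2, and 98.7% had intervals within 0.5. The median SD between arrays was 0.065 for the brighter members and 0.094 for all genes, and the part of brightness was not tested. All these intervals borrow much of their spread from other genes, with 6.28 degrees of freedom from the prior and 2 from the arrays. They do not cover the dye effect, the other probes of a gene or another processing. Dimmer probes of Mrpl49 (0.30), Mrpl27 (-0.22), Mrpl43 (0.21) and Mrpl22 (-0.099) lay outside the interval of their gene. So did dimmer probes of Mrpl39 (-0.047), Mrps7 (0.077), Mrps18b (-0.12) and Mrpl47 (0.14 and 0.13). With the surface described below left in Mrpl12 read 0.51.

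**Figure D1:**
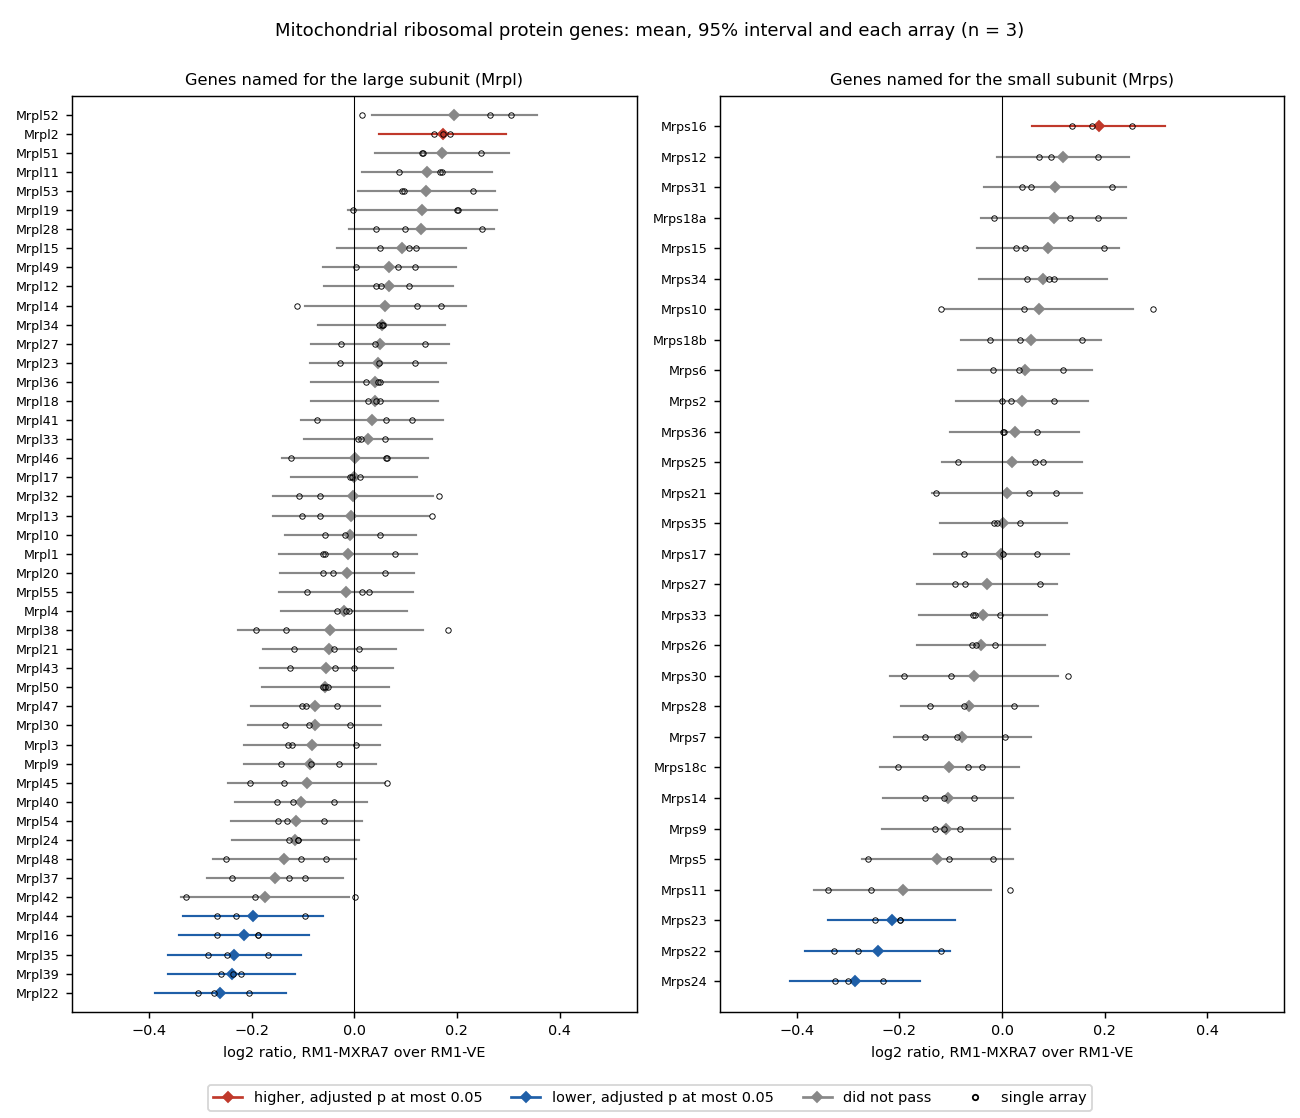
Log2 ratio of RM1-MXRA7 over RM1-VE (horizontal axis) for each of the 76 mitochondrial ribosomal protein genes, 47 named for the large subunit on the left and 29 for the small subunit on the right. Diamonds are means, bars 95% intervals of limma and open circles the 3 arrays, and the coloured members are the 2 higher and 8 lower ones that passed. All 76 means lie between -0.29 and 0.20.

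The lowered members lay in different pieces of the ribosome. Mrps24, whose bacterial relative sits at the entry of the messenger RNA channel of the small subunit, had log2 intensities of 12.83, 12.80 and 12.93 in RM1-MXRA7 cells, against 13.06, 13.12 and 13.23 in RM1-VE cells. The lines did not overlap. The mean log2 ratio was -0.29 ± 0.048 (SD, n = 3; limma adjusted p = 0.00667), the lowest of all members and a fold of 0.820. Mrpl22, whose bacterial relative lines the exit tunnel of the large subunit, had 14.19, 13.98 and 14.11 in RM1-MXRA7 cells, against 14.39, 14.28 and 14.38 in RM1-VE cells. Its log2 ratio was -0.26 ± 0.050 (SD, n = 3; limma adjusted p = 0.00995), again with no overlap. Mrpl16, whose bacterial relative helps to form the tRNA binding sites, had 12.24, 12.15 and 12.22 in RM1-MXRA7 cells, against 12.42, 12.34 and 12.49 in RM1-VE cells. All 3 arrays were again lower, by 0.19 on arrays 1 and 2 and by 0.27 on array 3, with a mean of -0.21 (limma adjusted p = 0.0216). Mrpl35, a large subunit protein of bacterial descent and the dimmest of the members that fell, had 8.67, 8.82 and 8.74 in RM1-MXRA7 cells, against 8.92, 8.99 and 9.02 in RM1-VE cells (mean ratio -0.23, limma adjusted p = 0.0166). Mrps23, a small subunit protein without a bacterial counterpart, had 13.81, 13.82 and 13.86 in RM1-MXRA7 cells, against 14.01, 14.06 and 14.06 in RM1-VE cells (mean ratio -0.22, limma adjusted p = 0.0198).

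The remaining lowered members have no bacterial counterpart. Mrps22, a small subunit protein in which human mutations cause mitochondrial disease, had 12.32, 12.03 and 12.22 in RM1-MXRA7 cells, against 12.65, 12.15 and 12.50 in RM1-VE cells. These ranges overlapped, array 2 being the dimmest in both lines, but each array was lower, by 0.33, 0.12 and 0.28 (mean -0.24 ± 0.11, SD, n = 3; limma adjusted p = 0.0208). Mrpl39, a large subunit protein, had 12.97, 12.91 and 13.13 in RM1-MXRA7 cells, against 13.21, 13.13 and 13.39 in RM1-VE cells, with ranges that overlapped barely and ratios of -0.24, -0.22 and -0.26 (limma adjusted p = 0.0128). Mrpl44, which carries a fold related to that of ribonuclease III, had 11.53, 11.58 and 11.53 in RM1-MXRA7 cells, against 11.76, 11.68 and 11.80 in RM1-VE cells (mean ratio -0.20, limma adjusted p = 0.0375). The probes of these 8 genes lie (mm9) at chr11:5604421-5604480 (Mrps24), chr11:57993002-57993061 (Mrpl22), chr19:11849233-11849292 (Mrpl16), chr6:71765277-71765336 (Mrpl35), chr11:88024940-88024999 (Mrps23), chr9:98489251-98489310 (Mrps22), chr16:84718547-84718606 (Mrpl39) and chr1:79777892-79777951 (Mrpl44).

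The members that rose did so by less. Mrps16, whose bacterial relative is needed to assemble the small subunit, had 14.37, 14.32 and 14.51 in RM1-MXRA7 cells, against 14.23, 14.15 and 14.26 in RM1-VE cells (mean ratio 0.19 ± 0.059, SD, n = 3; limma adjusted p = 0.0369). Mrpl2, whose bacterial relative lies near the site of peptide bond formation, had 14.63, 14.66 and 14.79 in RM1-MXRA7 cells, against 14.48, 14.49 and 14.61 in RM1-VE cells (mean ratio 0.17 ± 0.015, SD, n = 3; limma adjusted p = 0.0434). Neither gene's lines overlapped, but with the surface described below left in Mrps16 read -0.064 and Mrpl2 0.41. The member with the highest ratio, Mrpl52, did not pass: its ratios of 0.26, 0.31 and 0.014 averaged 0.20 ± 0.16 (SD, n = 3; limma adjusted p = 0.0668), and array 3 set it apart from the other 2. Over the whole list the log2 intensities of the lines did not overlap in 12 of 76 members (15.8%), against 21.5% of all genes.

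The calls by subunit and descent are read against the 14.9% of all genes called higher and 15.5% called lower. Of the 47 genes named for the large subunit, 1 rose and 5 fell, with a median ratio of -0.013. Of the 29 named for the small subunit, 1 rose and 3 fell, with a median of -0.0017. Among 48 members with a bacterial counterpart 2 rose and 4 fell (median -0.0024), and among 28 without one 0 rose and 4 fell (median -0.044). These counts are descriptions, and a difference between the sets was not tested. The names do not always give the place of the protein: Mrps18a and Mrps30 are known as large subunit proteins from mammalian structures, and Mrps36 is known as part of the alpha-ketoglutarate dehydrogenase complex. Mrps30 and Mrps36 did not pass, and their ratios were -0.054 and 0.025.

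The 3 paralogs of the bacterial S18 protein did not pass either. Mrps18a had a log2 ratio of 0.10 (limma adjusted p = 0.243), Mrps18b of 0.056 (limma adjusted p = 0.501) and Mrps18c of -0.10 (limma adjusted p = 0.218). In the mammalian mitochondrial ribosome these proteins occupy different places, and the names give 3 separate genes on the array.

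The letters around the start sites of the lowered members were read next. RefSeq promoter windows of 300 bases (250 before to 50 after the start, GRCm38.p6) matched 67 of the 76 members by symbol, in 73 windows. Each window shown, 5′ to 3′, carries a different motif, in capitals, in the direction of the gene: an ETS motif (CCGGAAG) in Mrpl22 at chr11:58171414-58171713 on the plus strand, an NRF1 motif (GCGCA, any base, then GCGC) in Mrpl39 at chr16:84735195-84735494 on the minus strand, and a YY1 motif (AAGATG followed at once by GCGGC) in Mrpl35 at chr6:71823735-71824034 on the minus strand.
Mrpl22: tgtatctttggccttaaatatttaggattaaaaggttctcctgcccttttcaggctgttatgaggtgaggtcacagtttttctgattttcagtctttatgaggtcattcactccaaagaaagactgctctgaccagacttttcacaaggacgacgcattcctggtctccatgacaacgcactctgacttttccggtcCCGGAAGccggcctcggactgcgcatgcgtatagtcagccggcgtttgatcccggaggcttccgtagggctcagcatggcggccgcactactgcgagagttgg
Mrpl39: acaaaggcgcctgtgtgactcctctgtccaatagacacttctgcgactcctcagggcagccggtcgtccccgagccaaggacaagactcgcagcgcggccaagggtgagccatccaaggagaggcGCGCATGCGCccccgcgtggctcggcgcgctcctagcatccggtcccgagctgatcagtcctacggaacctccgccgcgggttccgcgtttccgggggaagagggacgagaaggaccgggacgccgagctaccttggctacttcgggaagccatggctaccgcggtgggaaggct
Mrpl35: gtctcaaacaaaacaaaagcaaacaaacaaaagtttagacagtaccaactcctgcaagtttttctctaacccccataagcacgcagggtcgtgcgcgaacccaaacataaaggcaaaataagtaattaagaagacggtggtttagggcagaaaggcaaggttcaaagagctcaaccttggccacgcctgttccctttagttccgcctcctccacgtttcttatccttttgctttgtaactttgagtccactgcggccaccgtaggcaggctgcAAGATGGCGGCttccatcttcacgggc
Of the 16819 genes tested, 10643 were matched by symbol, in 13521 windows. Counted on both strands, the ETS motif stood in 32.9% of member windows, 16.3% of these windows of genes tested and 8.86% of all 32851 windows. The NRF1 motif stood in 16.4%, 9.10% and 4.60% of these, and the YY1 motif in 6.85%, 1.40% and 0.633%. None of these motifs contains another, and 49.3% of member windows, 24.5% of those of genes tested and 13.0% of all windows held at least 1 of the 3. A GC box (GGGCGG) stood in 52.1%, 59.3% and 35.7% and an E-box (CACGTG) in 9.59%, 9.49% and 7.15%. Of the 8 members that fell, 3 windows held the ETS motif (Mrpl22, Mrps22 and Mrps23), 2 the NRF1 motif (Mrpl39 and Mrpl44) and 1 the YY1 motif (Mrpl35). A match is a description of these letters and not a bound site. ETS and NRF1 motifs are well known in promoters of nuclear genes for mitochondrial proteins. Of the regulators that read or act on such motifs, Gabpa, the ETS protein that activates many of them, rose by 0.20 on the log2 scale (limma adjusted p = 0.0442) but read 0.18 on Agilent's processed signals and did not pass there (limma adjusted p = 0.110). Nrf1 had a ratio of -0.091 (limma adjusted p = 0.250) and Yy1 of -0.025 (limma adjusted p = 0.758).

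The place of a spot on the array moved the ratios of these genes. Before a smooth surface over rows and columns was removed, 21 members were called higher and 23 lower by limma (44 of 76, 57.9%), against backgrounds of 23.9%, 23.5% and 47.3% of all genes. The calls were sorted by row. Of the 26 single-spot members in rows 1 to 169, 19 were higher and 0 lower, with a median ratio of 0.29. Of the 24 in rows 370 to 530, 0 were higher and 19 lower, with a median of -0.24. With the surface removed, the medians of the same members were -0.0024 and -0.012, and 1 was higher and 2 lower in each set. In rows 186 to 342, 23 members had medians of -0.058 with the surface left in and -0.030 without it. The correlation of ratio with row over the 73 members with a single spot was -0.88 with the surface left in and -0.10 without it. This is a description over spots that share arrays. The surface was fitted to all kept spots, including these and the repeated spots below. The smaller trend with row after removal thus follows in part from the fit itself. Removing the surface lowered the variance of the ratios by 34.5% on array 1, 33.7% on array 2 and 25.5% on array 3.

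Mrpl34, Mrpl50 and Mrps35 each had a probe spotted 10 times on every array, so that 1 sequence could be read in many rows. Mrpl34, a large subunit protein of bacterial descent, had 10 usable spots on array 2 between rows 19 and 496. Its single-spot ratios ran from -0.20 to 0.60 (SD 0.295) with the surface left in, and from -0.02 to 0.18 (SD 0.054) with it removed. Mrpl50, a large subunit protein without a bacterial counterpart, ran from -0.41 to 0.10 on array 3 between rows 100 and 471, and from -0.10 to -0.002 once the surface was removed. Mrps35, of the small subunit, ran from -0.29 to 0.38 on array 1 between rows 22 and 478, and from -0.10 to 0.09 once it was removed. On the arrays named, each probe was thus high at low row numbers and low at high ones. The other arrays differed in size. Mrps35 had 8 usable spots on array 2, from row 217 on, with an SD of 0.054 with the surface left in and 0.044 with it removed, and on array 3 these were 0.148 and 0.042. For Mrpl34 the SD over spots was 0.235 to 0.295 over the 3 arrays with the surface left in and 0.054 to 0.067 with it removed, and for Mrpl50 it was 0.193 to 0.218 and 0.035 to 0.042. Some slope was left in Mrpl50, whose correlation with row after removal was 0.24, -0.63 and -0.62 on arrays 1, 2 and 3. In the same order it was -0.06, -0.50 and 0.14 for Mrpl34 and -0.31, -0.30 and 0.39 for Mrps35. These are descriptions over 8 to 10 spots each. Over arrays, with the surface removed, the ratios averaged 0.053, -0.056 and 0.0028 for Mrpl34, Mrpl50 and Mrps35, with limma adjusted p-values of 0.480, 0.453 and 0.974.

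**Figure D2:**
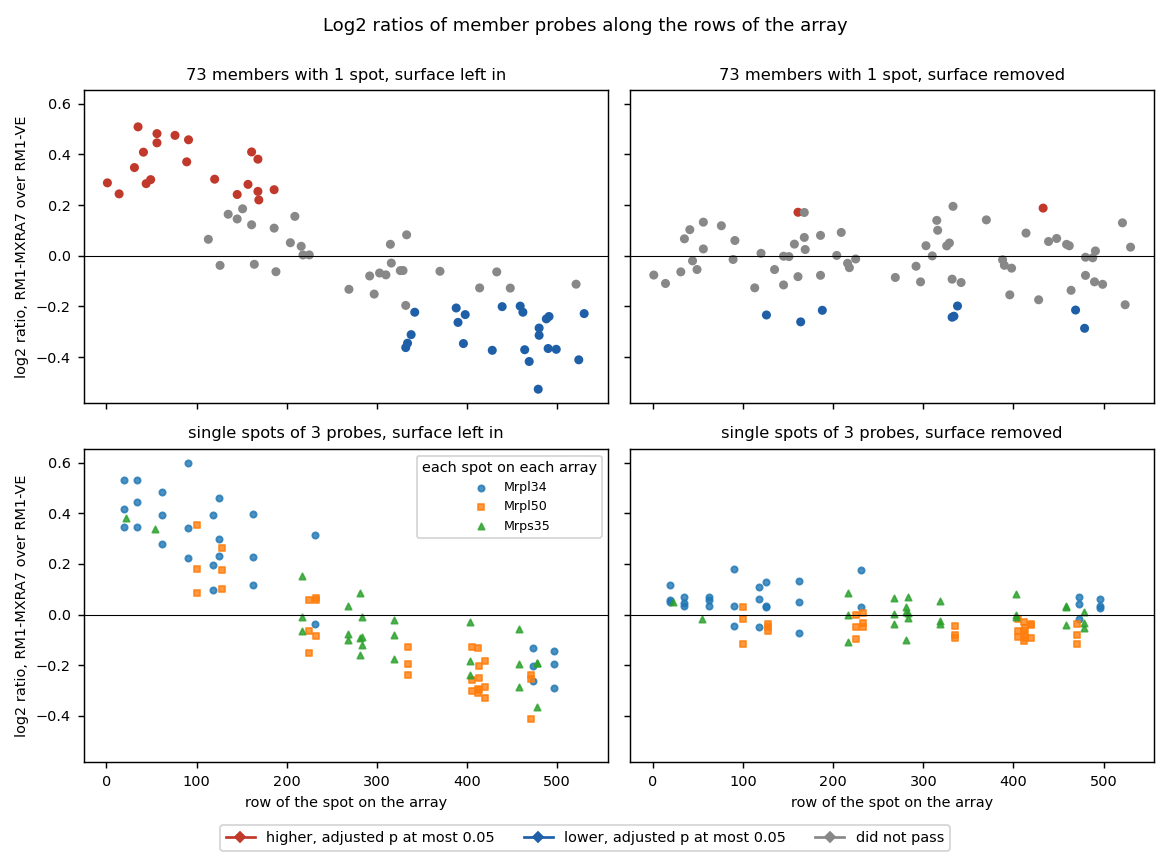
Log2 ratio of RM1-MXRA7 over RM1-VE against the row of the spot, for the 73 members with 1 spot (top, means of 3 arrays, coloured where limma's adjusted p was at most 0.05) and for every spot of Mrpl34, Mrpl50 and Mrps35 on each array (bottom). With the surface left in (left) the medians are 0.29 in rows 1 to 169 and -0.24 in rows 370 to 530, and with it removed (right) they are -0.0024 and -0.012.

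The same was seen where a gene had probes of nearly the same letters in distant rows. Mrps18b had a pair of probes of 60 bases that share 55, in row 439 at chr17:36047331-36047390 and in row 18 at chr17:36047326-36047385 (mm9, minus strand). The first 30 bases of each are shown, with the shared bases in capitals, because the probes are offset by only a few bases.
Mrps18b, row 439: ggtgtGTCCCTGATTTAAACCTCCTGGCTC
Mrps18b, row 18: GTCCCTGATTTAAACCTCCTGGCTCAGCTT
With the surface left in, the first read -0.20 and the second 0.50. With it removed they read 0.056 and 0.032. Agilent's own processed signals gave -0.028 and 0.090. For Mrpl40, a pair sharing 52 bases in rows 297 and 500 read -0.15 and -0.35 with the surface left in, and -0.10 and -0.11 with it removed.

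Probes of different letters within 1 gene did not always agree. In a fit over every kept probe, 4 of 104 member probes were higher and 10 lower, against 15% and 14.6% of 21791 kept probes. Among 25 members with 2 or more kept probes (53 probes), the spread between probes of a gene had a median of 0.086 and was largest at 0.28 for Mrpl47, whose 4 probes did not pass. Probes of opposite sign were seen in 13 of the 25 genes. The probes that carry agreement or disagreement are shown by their first 30 of 60 bases. Those of Mrps23 lie on the plus strand at chr11:88024940-88024999 and chr11:88018797-88018856, those of Mrpl27 on the plus strand at chr11:94521032-94521091 and chr11:94521320-94521379, and those of Mrpl43 on the minus strand at chr19:45079976-45080035 and chr19:45080116-45080175 (mm9). The sources used here do not annotate exons or untranslated regions on that build.
Mrps23, brighter probe: aacatcctgccgccctggtactgcttcctt
Mrps23, dimmer probe: ttgcgatatggcaaagccaaagctgacatc
Mrpl27, brighter probe: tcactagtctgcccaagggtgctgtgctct
Mrpl27, dimmer probe: ccatctataatctcttcttgtgtgtctgaa
Mrpl43, brighter probe: gaccttgtgaataccctaattctgattcaa
Mrpl43, dimmer probe: ttggaccgtgagagggataggattggttcc
Both probes of Mrps23 fell, by 0.22 and 0.24 on the log2 scale (limma adjusted p over probes = 0.0192 and 0.0127). Mrpl27, whose bacterial relative reaches towards the site of peptide bond formation, read 0.050 on its brighter probe and -0.22 on its dimmer one (limma adjusted p over probes = 0.543 and 0.0384). Mrpl43, a large subunit protein without a bacterial counterpart, read -0.054 and 0.21 (limma adjusted p over probes = 0.497 and 0.0236). Among the lowered members with a further probe, the dimmer probe read -0.099 for Mrpl22 (limma adjusted p over probes = 0.195) and -0.047 for Mrpl39 (0.608 by the same test), so those 2 calls rest on the brighter probe. Mrpl49, named after its values were seen, read 0.068 on its brighter probe and 0.30 on its dimmer one (limma adjusted p over probes = 0.385 and 0.019). The brighter probe of Mrpl30 (-0.077) maps to chromosome 11 and the other one (0.0091) to chromosome 1 in the array file, and neither passed. The RefSeq promoter window of Mrpl30 lies on chromosome 1. The probe that stands for the gene in the main fit is therefore the one mapped away from it.

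**Figure D3:**
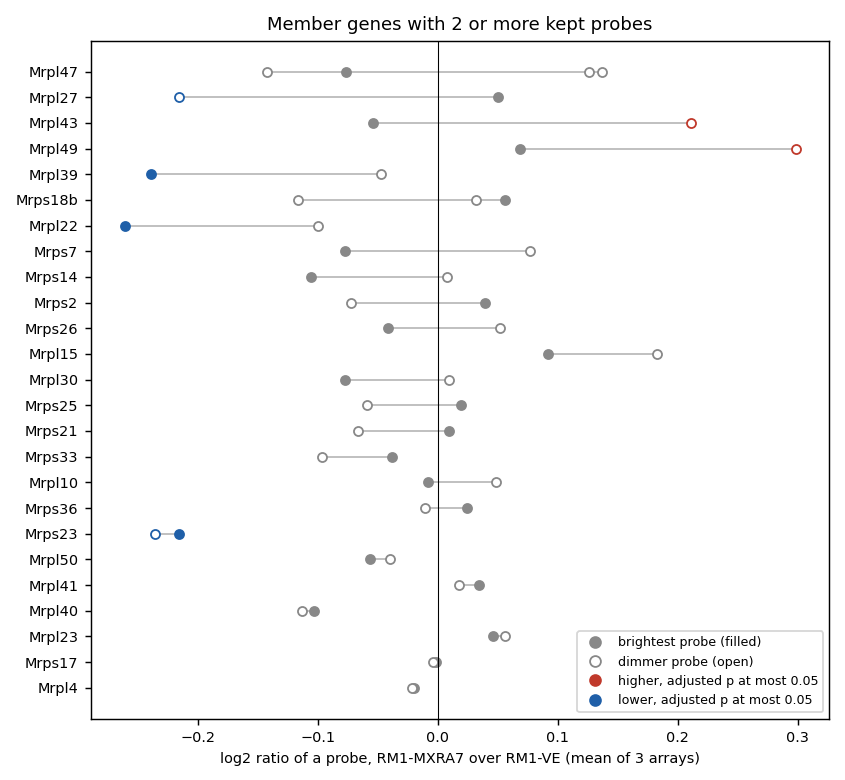
Log2 ratio of RM1-MXRA7 over RM1-VE (horizontal axis, mean of 3 arrays) for the 53 kept probes of 25 members with 2 or more of them. Filled circles are the brightest probe, which stands for the gene, open circles the dimmer ones, and colours mark probes with limma's adjusted p at most 0.05. The probes of Mrpl27 and Mrpl43 lie on opposite sides of 0, and those of Mrps23 together below it.

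Agilent's processed signals, a separate correction by its Feature Extraction software, gave much the same ratios over the 76 members (r = 0.956, a description over genes of the same arrays). On these signals the single-spot members had medians of -0.0015 in rows 1 to 169, -0.029 in rows 186 to 342 and -0.084 in rows 370 to 530. Some trend along the rows was thus left in the processed signals. Limma called 0 members higher on them, against 11.5% of all genes, and 7 lower, against 12.9%, with 12 members at an unadjusted p of at most 0.05. All 7 were among the 8 called lower with the surface removed, the exception being Mrpl44 (-0.22, limma adjusted p = 0.0584), and the shares of all genes called both ways were 9.92% higher and 10.9% lower. Mrps16 and Mrpl2 had ratios of 0.098 and 0.15 on these signals and did not pass. In 4 members (5.26%), Mrps24, Mrps22, Mrpl39 and Mrpl16, the lower call held with the surface removed, with it left in and on the processed signals, against 8.39% of all genes. No member rose under all 3, against 7.21% of all genes. Mrpl22, Mrpl35 and Mrps23 read -0.034, -0.038 and -0.063 with the surface left in and were not called there. Their probes lay in rows 164, 126 and 188, and those of Mrps24, Mrps22, Mrpl39 and Mrpl16 in rows 479, 332, 334 and 469. Calls with the surface left in were sorted by row. Agreement under all 3 therefore depends on the place of the spot and does not rank these members by robustness.

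The nearest functional relatives were set beside these genes, by the counts at the same thresholds, for which the shares of all genes were 14.9% higher and 15.5% lower with the surface removed and 11.5% and 12.9% on the processed signals. The 7 mitochondrial ribosomal proteins under other names had 0 called members and a median of 0.032, with Mrp63 at 0.14, Ict1 at -0.098 and Chchd1 at 0.10 the nearest to passing (limma adjusted p = 0.0870, 0.197 and 0.204). Of 22 assembly factors 1 rose and 4 fell (median -0.0072), and 0 and 3 did on the processed signals. Mettl15, a methyltransferase of the small subunit RNA, fell by 0.33 on the log2 scale, Eral1, a GTPase that binds the same RNA, by 0.28 and Mrm1, a methyltransferase of the large subunit RNA, by 0.25 (limma adjusted p = 0.00492, 0.00678 and 0.0228). Of 15 translation factors 1 rose and 3 fell (median -0.047), and 1 and 1 did on the processed signals. Mrrf, the ribosome recycling factor, rose by 0.23, and Taco1, an activator of Cox1 translation, and Mtfmt, which formylates the initiator tRNA, fell by 0.22 and 0.23 (limma adjusted p = 0.0148, 0.0223 and 0.0241). On the processed signals Taco1 read -0.22 and did not pass (limma adjusted p = 0.0592). Of 19 mitochondrial aminoacyl-tRNA synthetases and related enzymes 1 rose and 3 fell (median -0.019), as on the processed signals by count, with Gatb at -0.32 and Sars2 at -0.29. The synthetases on this list, such as Sars2, charge the mitochondrial tRNAs.

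Of 22 genes for mitochondrial DNA transcription and RNA handling 0 rose and 7 fell (median -0.082), against 14.9% and 15.5% of all genes. On the processed signals 0 rose and 4 fell, against 11.5% and 12.9%. Fastkd5, needed to process mitochondrial RNA, fell by 0.50, Pnpt1, a polynucleotide phosphorylase, by 0.36 and Tfb2m, a transcription initiation factor, by 0.29 (limma adjusted p = 0.000597, 0.00261 and 0.00522). Of the 8 kept regulators 2 rose and 0 fell, and 1 rose on the processed signals, which was Myc. Myc, which is known to raise ribosome production, had ratios of 0.29, 0.20 and 0.55 and rose by 0.35 (limma adjusted p = 0.00977), while Pprc1 ranged from -1.08 on array 3 to 0.08 and did not pass. The 13 transcripts encoded in mitochondrial DNA had 0 higher and 10 lower, with a median of -0.25. Among them ATP8 read -0.35, ND4L -0.34 and COX2 -0.27, and only 3 of the 13 were called lower on Agilent's processed signals (median -0.18). With the surface left in 1 was higher and 10 were lower (median -0.45), against 23.9% and 23.5% of all genes. With it removed, the median of these transcripts was -0.18, -0.43 and -0.18 on arrays 1, 2 and 3, so its size differed between arrays. Their spots were bright, with a median log2 intensity of 16.1, and the part of brightness was not tested.

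Cytosolic ribosomal protein genes build the ribosome outside the organelle. Of their 78 kept genes 2 rose and 48 fell, with a median of -0.26, against 2 and 8 of 76 and a median of -0.010 for the mitochondrial set. Rps27a, Rpl38 and Rpl35 read -0.80, -0.77 and -0.72 (limma adjusted p = 3.2e-05, 5.98e-05 and 8.1e-05). This size depended on the processing. With the surface left in, 5 cytosolic genes rose and 47 fell, with a median of -0.26, against 23.9% and 23.5% of all genes. On Agilent's processed signals 5 cytosolic genes rose and 18 fell, with a median of -0.064, and the median for the mitochondrial ones was -0.029. The cytosolic spots are brighter, with a median log2 intensity of 17.0 against 13.3, and the part of brightness in the result was not tested. Of 78 nuclear genes for respiratory chain and ATP synthase subunits 2 rose and 9 fell (median -0.031). Cox6a1 read -0.39, Atp5g2 -0.33 and Uqcr10 -0.29, and 2 of the 78 were lower on the processed signals. The difference between lists was not tested.

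**Figure D4:**
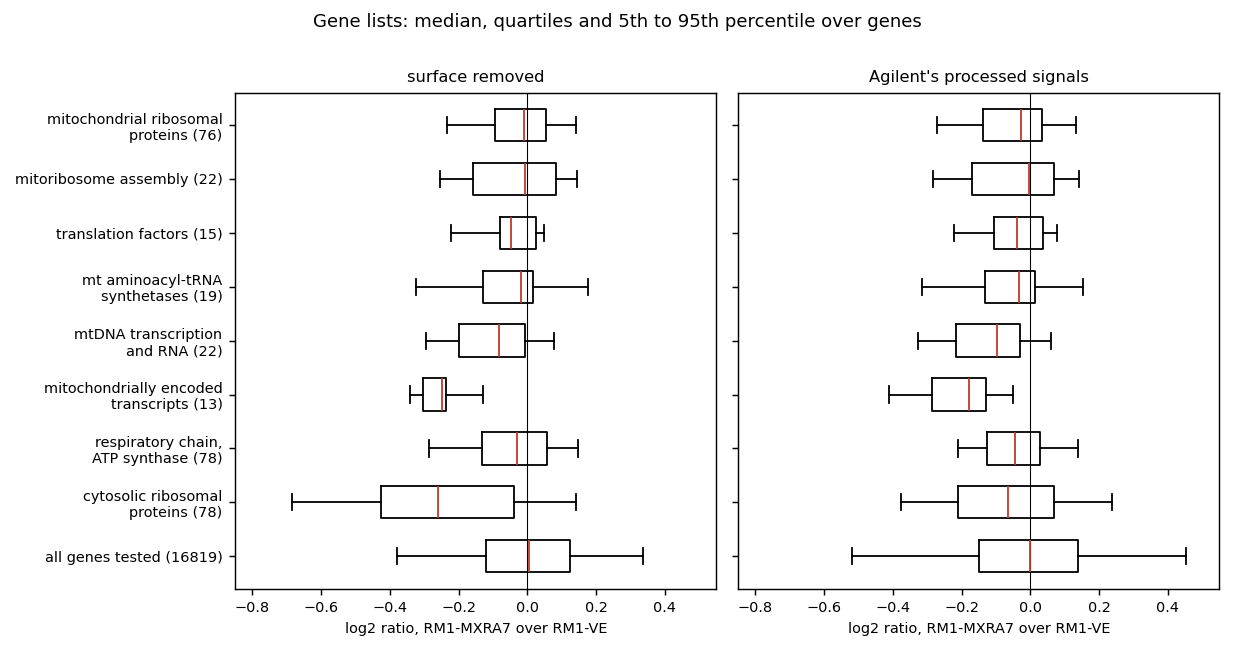
Log2 ratios of RM1-MXRA7 over RM1-VE for the mitochondrial ribosomal protein genes, 7 companion lists and all genes tested, with the number of genes in brackets. Red lines are medians, boxes quartiles and whiskers the 5th to 95th percentile over genes, with the surface removed (left) and on Agilent's processed signals (right). The cytosolic ribosomal protein box sits below the mitochondrial one on the left (medians -0.26 and -0.010) and nearer to it on the right (-0.064 and -0.029).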

How the data were processed

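RNA of 2 lines was measured on 3 two-channel arrays. Per the file headers, the authors deposited Agilent Feature Extraction output (version 10.7.1.1, per the submitters' processing notes), with a mean, background and processed intensity per spot and channel. The series matrix the authors deposited gives linear ratios, which equalled processed green over red within 1% for 100% of 118246 values, so it is RM1-MXRA7 over RM1-VE and uncentred (column medians 1.02, 1.03 and 0.972). All arrays lie on the same slide, so slide gives no batch.

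Intensities were corrected with normexp (offset 50) and loess within arrays (limma 3.58.1, R 4.3.3). A surface per array (polynomials of degree 4 in row and column, alone and times log2 intensity) was then removed, because ratios ran along the rows. Log2 ratios were computed from the deposited intensities and tested with lmFit and eBayes over all genes, Benjamini-Hochberg at 0.05. Log2 intensities per line are the mean signal plus or minus the ratio shared equally, after surface removal. Control and outlier-flagged spots were left out and spots of a probe averaged. Probes had to be well above background in 1 channel or both on every array (21791 of 39429 were kept), and the brightest kept probe stood for a gene (16819 genes). The fit and the surface removal were tried on simulated data. The simulated shifts were larger than the ratio of any member, so they do not cover differences of the size reported here. RefSeq (GRCm38.p6) names matched 27508 probes by accession, and promoters are RefSeq's. Members, lists, motifs and the surface step were chosen with earlier results of these data known.

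Members named are those called in all 3 processings, those called with the surface removed, those whose probes differ by over 0.3 or in sign with one called, the Mrps18 paralogs and, per companion list, the 3 smallest adjusted p, except a companion gene that is not reported here. Ten-spot, overlapping-probe and other genes were named after their values were seen. The arrays pair both lines, and the pairing comes from shared hybridisation: the ratio per array holds it. Fitting the channels apart with the array as a replicate block gave the same 2 higher and 8 lower members. This had to be so, because the channels were rebuilt from the same ratio, and it is no separate check.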

Additional observations from a re-analysis of the deposited data

How the results depend on the processing

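The counts of 2 higher and 8 lower members and the median of -0.010 moved with the processing. With the surface left in they were 21, 23 and -0.058. On Agilent's processed signals and on the series matrix ratio, 0 were higher (12 members at an unadjusted p of at most 0.05 in limma) and the median was -0.029. Median centring in place of loess gave a median of 0.0069. Without the filter on dim probes 4 were higher, as with an intensity trend and robust prior. Fitting the channels apart with no replicate block, which ignores the pairing, gave 0 higher and 0 lower (6 at an unadjusted p of at most 0.05; 156 and 354 over all genes). Leaving out each array in turn gave 0 to 1 higher, 0 to 7 lower and medians of -0.021 to 3.84e-05. Without replicate 2 none of the 10 members passed (11 members at an unadjusted p of at most 0.05), and 740 and 934 of all genes did. With the surface left in, Mrps16 read -0.064 (limma adjusted p = 0.519), Mrpl43 0.30 (0.00644 by the same test) and Mrps18b -0.20 (0.0470). Each was opposite in sign to its value with the surface removed. Other members changed sign too. Among them, Mrps28 went from -0.063 with the surface removed to 0.35 with it left in. Mrps9 went from -0.11 to 0.24 and Mrpl41 from 0.034 to -0.23. Over all alternatives the lowered members kept direction and call in 100 cases and direction alone in 28, and the raised ones in 20 and 11, with 1 reversal, that of Mrps16. These cases are not separate checks, and some settings could hardly differ. Fitting the channels apart with the replicate block repeats the main fit, and the series matrix ratio repeats the processed signals. Changing the filter on dim probes or the prior left the ratios of these members as they were. The limits are the single dye orientation, 3 arrays of unstated origin and a surface whose form was chosen. A surface of degree 2 ended the calls of Mrpl35 (-0.19) and Mrps23 (-0.20), and the mean over probes that of Mrpl39 (-0.14). The cause of these changes was not tested.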
